A study of Mus musculus with 3 samples.

Results

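The sites described here are stretches inside mouse genes that lie more than 15 kb downstream of the gene's start, in genes shorter than 150 kb, and that the authors listed as differing in PARP-1 signal between cocaine and saline. They were taken from the authors' list of differential sites as the rows annotated to a gene body with a gene name, with the midpoint over 15 kb from the start of the assigned transcript and under 150 kb between its start and end. This gave 256 of the 1727 listed sites (14.8%), in 228 genes. Direction played no part in the choice. The authors' adjusted p, from their negative binomial test, was under 0.05 at 251 of the 256 sites. The other 5 lay in Skint4 and Sfi1.

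PARP-1 ChIP-seq was done on nucleus accumbens, the ventral striatal region on which drugs of abuse act, from C57BL/6 mice. The cocaine group received intraperitoneal cocaine at 20 mg/kg daily for 7 days and the saline group received saline on the same days, and both were killed 30 min after the seventh dose. Chromatin from punches of 10 pooled mice made up a replicate and was precipitated with a rabbit polyclonal PARP-1 antibody. The labels state 3 replicates per group, whereas each listed site has 2 cocaine values (n = 2) and 3 saline values (n = 3). Replicate numbers below give only the order in the list. A genomic DNA input sample belongs to the series but has no column in the list. Punches hold all cell types of the region, so fewer cells of a type with PARP-1 at a site and less PARP-1 per cell cannot be told apart. No RNA was measured, so the tissue label was not checked against marker genes.

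PARP-1 is an abundant nuclear enzyme that binds nicked or broken DNA and nucleosomes and uses NAD to build chains of ADP-ribose on itself, on histones and on other chromatin proteins. These chains loosen chromatin, recruit repair and remodelling factors and are removed quickly by glycohydrolases. PARP-1 is best known at promoters and at DNA breaks, and it also associates with the bodies of transcribed genes, which makes signal far from a gene's start a separate question from signal at the promoter.

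The comparison asked where PARP-1 signal differed after repeated cocaine. Of the 256 distal sites, 252 were higher after cocaine and 4 were lower. The share that was higher was 98.4% (95% interval 96.0 to 99.6% by the exact Clopper-Pearson method, for the counting of sites alone). Among all 1727 listed sites 1605 were higher (92.9%). The interval takes sites as independent, although they share the same libraries and 15 lie in Sfi1. It therefore does not measure variation between replicates and gives no test of the difference between these shares. A limma test on log2(value + 1), adjusted by the Benjamini-Hochberg method over all 1727 sites, called 236 of the 256 higher (92.2%, against 90.2% of all listed sites) and 4 lower (1.56%, against 5.27%). The share called higher was therefore close to that of the list as a whole. The remaining 16 sites, 15 of them in Sfi1, were not called.

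Replicates of the groups did not overlap at 251 higher sites (98.0%, against 92.2% of all listed sites) and at 4 lower sites (against 6.72%). The sites had been listed by the authors from a test of the same contrast on these libraries, so the calls describe the listed sites and are not independent evidence. Fold changes of sites listed this way can be overstated, and no correction was made. Called sites are described below as having risen or fallen.

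**Figure D1:**
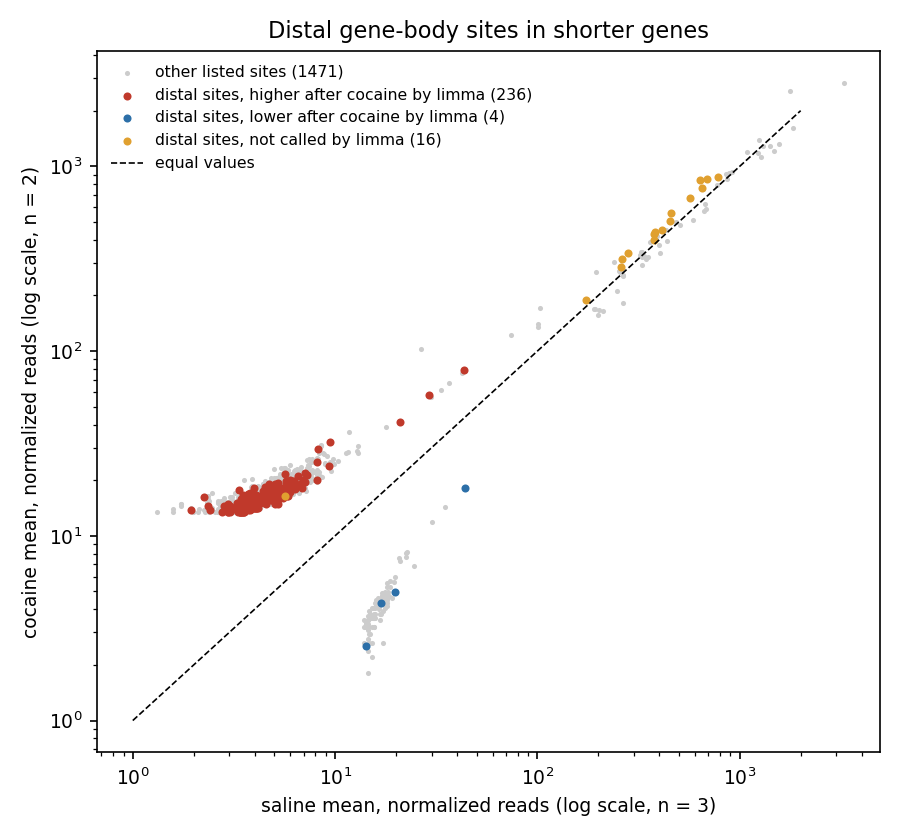
Mean normalized reads per site after saline (x axis, n = 3) and after cocaine (y axis, n = 2), both on log scales, for the 256 distal gene-body sites coloured by limma call and for the 1471 other listed sites in grey; the dashed line marks equal values. The 236 called higher sites form a compact cloud near 16 reads after cocaine and 4 after saline, the 4 lower sites lie below the line, and the uncalled Sfi1 sites lie close to the line at 174 to 877 reads.

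Counts at most of these sites were small. In Sfi1, 15 sites had a mean of 100 reads or more, and the other 241 comprised 237 higher and 4 lower sites. At the 237 higher sites the median was 15.7 normalized reads after cocaine and 4.24 after saline, which gave a median ratio of 3.63. In reads, the medians were 18 and 14 in the cocaine replicates and 4, 5 and 4 in the saline replicates. No cocaine replicate held fewer than 12 reads at these sites. The lowest cocaine mean was 13.4, which 14 sites shared exactly, and 72 of the 237 (30.4%) lay within 1.1 times of it. The cloud of higher sites therefore had a sharp lower edge in the cocaine values. At 6 of these sites a saline replicate held no read.

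All directions are those under the authors' scaling of the libraries, which the list alone cannot check. Over all listed sites the median limma change was 1.67 on the log2 scale, and it was 1.69 at the 252 higher distal sites. Median-of-ratios factors recomputed over the list centre it near 0 by construction, because most listed sites are higher. They moved the median of all listed sites by 1.57, to 0.11, and that of the higher distal sites to 0.13, and left 0 distal sites called higher and 19 called lower (the 4 lower sites and the 15 Sfi1 sites). These counts follow from the centring and are no evidence on direction. Leaving out a cocaine replicate changed the calls, while the median change stayed close to that with both. The sites had been listed with both cocaine replicates. A similar median from either alone thus largely follows from the listing and is no evidence on the size of the difference. Without cocaine replicate 2 limma called 0 of the 256 sites, with a smallest adjusted p of 0.0561 over all listed sites and 180 higher sites at an unadjusted p under 0.05, and the median change of the higher sites was 1.66. Without cocaine replicate 1 it also called fewer of the sites than with both replicates, and the median was 1.75. Each of these fits had a lone cocaine sample, assumed to vary like the saline samples. The exact binomial test on all reads called 248 higher and 4 lower. Its count over all listed sites is not given here, so these counts cannot be set against that background. It sums the reads of each group and ignores variation between replicates, so it does not answer whether the calls hold across replicates.

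The 4 sites that fell lay in the DNA repair gene Rbbp8, the transporter genes Slc38a11 and Slco6c1 and the gene model Gm13154. Rbbp8 encodes CtIP, which trims DNA ends at double-strand breaks. Its site (chr18:11895801-11896800, mm9), 80.0 kb from the start of a gene of 85.4 kb, held 1.64 and 3.41 normalized reads after cocaine and 13.8, 14.6 and 14.2 after saline. It fell by 2.15 on the log2 scale (SE 0.298, limma adjusted p 0.00537). The 3 saline values were nearly equal and both cocaine values were far below them.

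Slc38a11 and Slco6c1 belong to families of amino acid and organic anion transporters. The Slc38a11 site (chr2:65162601-65163900) held 6.57 and 3.41 after cocaine against 15.9, 18.2 and 25.1 after saline, and fell by 1.82 (SE 0.350, limma adjusted p 0.00599). The Slco6c1 site (chr1:99001501-99002700) held 4.11 and 4.55 against 13.8, 17.3 and 19.7, and fell by 1.74 (SE 0.260, limma adjusted p 0.00537). The groups were well separated at both sites.

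Gm13154, a gene model now named Zfp985 in RefSeq, held the most reads of the lower sites and fell least. Its values were 20.54 and 15.91 after cocaine and 44.6, 45.6 and 41.5 after saline (chr4:146951401-146953100), a fall of 1.23 (SE 0.244, limma adjusted p 0.00625). In the authors' deposited table the lower sites had enrichments over background of 0.20 to 0.44 after cocaine and 1.0 to 1.81 after saline. The lower sites were thus at background or above it after saline and below background after cocaine.

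The genes below are grouped by gene lists that were matched by patterns in gene names. The lists are not complete. For example, the kinases Abl1, Pak4 and Dapk2, the receptor gene Ednrb and the chromatin gene Ash2l hold distal sites but are on none of them. The count given for a group is that of its list, not of every gene with that function. Of the 237 higher low-count sites 236 were called, with a median change of 1.71, and 90.2% of all listed sites were called higher, so a group whose sites all rose is at that background and shows nothing particular to the group. The list of G protein signalling genes gave 8 sites in 7 genes, and all 8 rose, with a median change of 1.70. Rgs9 encodes a GTPase-accelerating protein that is abundant in striatal neurons and limits dopamine and opioid receptor signalling. Its site (chr11:109100201-109101400), 58.7 kb from the start, held 15.6 and 14.8 reads after cocaine and 4.25, 3.65 and 4.37 after saline, and rose by 1.67 (SE 0.231, limma adjusted p 0.00537). Rgs3, of the same protein family, had 2 sites, at 35.2 and 62.9 kb, and both rose. Rgs12 rose by 1.81, from 4.25, 3.65 and 2.18 to 13.1 and 14.8. Cocaine and saline values did not overlap at any of these sites.

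Grk4, a kinase that desensitizes receptors, held 13.1 and 13.6 reads after cocaine and 4.25, 1.82 and 4.37 after saline, and rose by 1.74 (SE 0.360). Prkar2a, a regulatory subunit of protein kinase A, rose by 1.72, with its site 0.341 kb before the gene's end. Gpr141, an orphan receptor, rose by 1.64. The eighth site lay in Gprc2a-rs5, which RefSeq now lists as the pheromone receptor pseudogene Vmn2r-ps54.

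Neurotransmitter receptors and ion channels gave 3 sites, which all rose. Htr7 encodes a serotonin receptor that raises cyclic AMP. Its site (chr19:36091701-36092700) held 15.6 and 13.6 reads after cocaine and 7.43, 2.74 and 2.18 after saline, and rose by 1.75 (SE 0.463, limma adjusted p 0.0131). One saline replicate was well above the others, which widened the error. The inward rectifier Kcnj16 rose by 1.49 and the magnesium channel Trpm6 by 1.75, the latter 132 kb from its start.

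On the list of kinases, phosphatases and lipid signalling genes, all 10 sites in 9 genes rose, with changes of 1.44 to 2.21. Ppp1r13b encodes ASPP1, a p53-binding protein, and had the largest change of them. Its site (chr12:113074201-113075200) held 13.1 and 15.9 reads after cocaine and 2.12, 2.74 and 2.18 after saline, and rose by 2.21 (SE 0.245, limma adjusted p 0.00537). Pik3r5, a regulatory subunit of phosphoinositide 3-kinase gamma, rose by 2.14 (SE 0.474). The survival kinase Akt2 rose by 1.90 and the neuronal stress kinase Map3k13 by 1.87.

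The list of small GTPases and their regulators had 7 sites in 7 genes, all of which rose. Arf3, a GTPase of the Golgi, held 14.0 and 17.0 reads after cocaine and 5.31, 5.47 and 0 after saline, and its change of 2.25 carried an SE of 0.860 (limma adjusted p 0.0431). The empty saline replicate made this 1 of the least certain called sites. Dennd2a and Rin3, which activate Rab proteins, rose by 2.00 and 1.58. Arhgap23 rose by 1.74.

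Axon guidance and growth inhibition were represented by Lingo1 and Plxna1. LINGO-1 is part of the receptor complex that stops axon growth at myelin. Its site (chr9:56488701-56490900), 43.3 kb from the start, was among the better covered ones. It held 33.7 and 30.7 reads after cocaine and 9.56, 10.0 and 8.73 after saline, and rose by 1.67 (SE 0.230, limma adjusted p 0.00537). Replicates lay close together in both groups. Plxna1, a semaphorin receptor, held 13.1 and 13.6 against 5.31, 2.74 and 2.18 and rose by 1.77 (SE 0.355).

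Adhesion and matrix genes gave 4 sites, which all rose. They lay in the cadherins Cdh6 and Cdh26, which rose by 1.84 and 1.54, in the laminin chain Lama1, which rose by 1.38, and in Lrp8, a receptor for reelin, which rose by 1.60.

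Vesicle and membrane traffic genes gave 8 sites in 6 genes, and all 8 rose, with a median change of 1.83. Stx6, a syntaxin of the trans-Golgi and endosomes, held 14.8 and 17.0 reads after cocaine and 3.19, 2.74 and 4.37 after saline, and rose by 1.95 (SE 0.269, limma adjusted p 0.00537). The synaptotagmins Syt13 and Syt7 rose by 2.06 and 1.65. The sorting nexin Snx30 had 3 sites, at 16.6, 38.9 and 56.6 kb, and rose by 1.64, 1.82 and 1.94 at them.

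Solute carriers and membrane transporters formed the list with the most genes, 16 with 1 site each, of which 14 rose and Slc38a11 and Slco6c1 fell. Atp2b2, a plasma membrane pump that expels calcium, had the largest change of all 256 sites. Its site (chr6:113812801-113814000) held 16.4 and 15.9 reads after cocaine and 0, 4.56 and 2.18 after saline, and rose by 2.72 (SE 0.712, limma adjusted p 0.0126). Slc7a2, which carries cationic amino acids, also had a saline replicate at 0, with 14.0 and 13.6 against 0, 3.65 and 2.18, and rose by 2.59 (SE 0.658, limma adjusted p 0.0114). The 2 largest changes thus belonged to sites with an empty saline replicate, and their errors were far above those of sites with even values such as Rgs9. The organic anion carrier Slco1b2, known from liver, rose by 2.04 and the aromatic amino acid carrier Slc16a10 by 1.77.

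**Figure D2:**
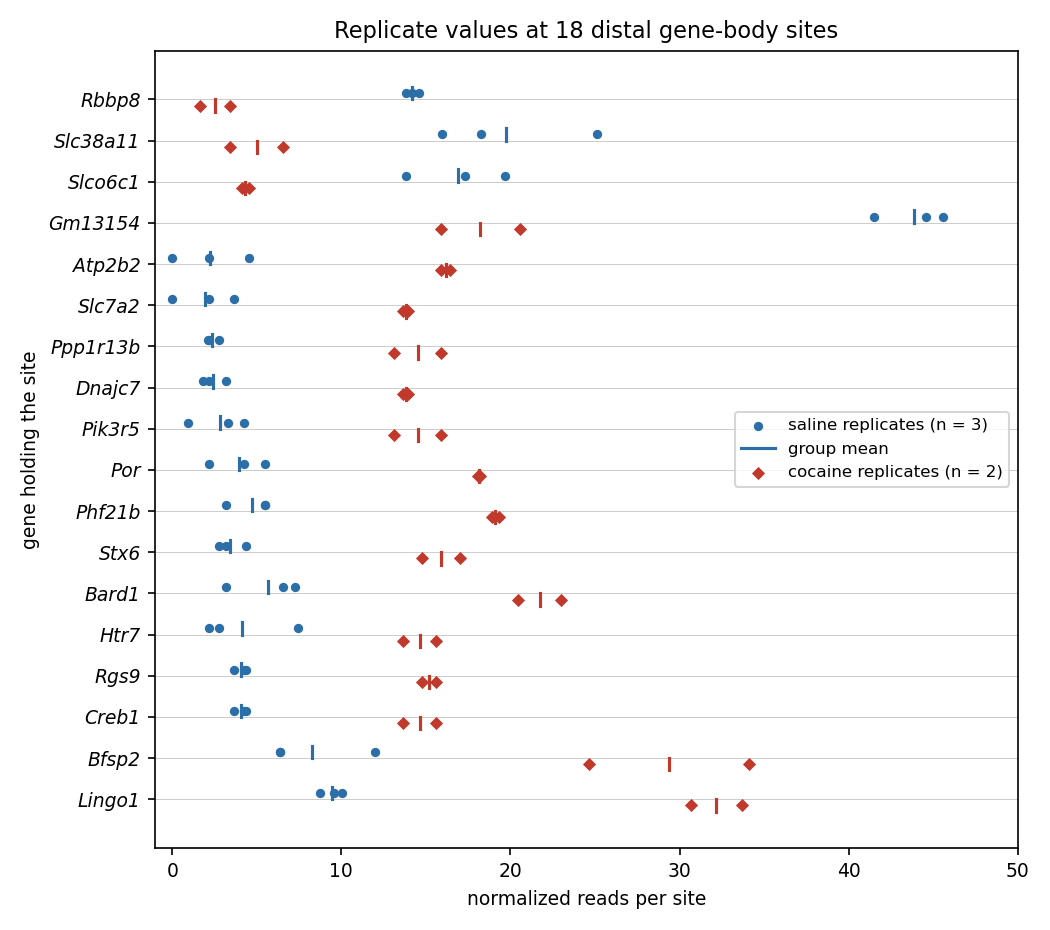
Normalized reads per site (x axis, linear) in each saline replicate (blue circles, n = 3) and each cocaine replicate (red diamonds, n = 2) at 18 distal gene-body sites, named by gene, with vertical bars at the group means. The top 4 rows are the lower sites and the other 14 rose; no row has overlapping groups, and most cocaine values of the higher sites lie between 13.1 and 20 reads.

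Transcription factors gave 8 sites in 7 genes, and all 8 rose. Creb1, the factor that carries cyclic AMP and calcium signals to gene promoters, had a site (chr1:64649801-64650800) 70.9 kb from its start. It held 15.6 and 13.6 reads after cocaine and 4.25, 3.65 and 4.37 after saline, and rose by 1.62 (SE 0.235, limma adjusted p 0.00537). Atf2, of the same leucine zipper class, rose by 1.92, with saline values of 3.19, 7.29 and 1.09 that scattered more widely. Foxo3, a stress-response factor, had 2 sites 30.4 kb apart, which rose by 1.72 and 1.81. The zinc finger homeobox genes Tshz1 and Tshz3 rose by 1.65 and 2.16, the latter with a saline replicate at 0 and a limma adjusted p of 0.0490.

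The list of chromatin regulators gave 4 sites, which all rose. Kdm2b encodes a histone demethylase that guides a Polycomb complex to CpG islands, and its site held 16.4 and 13.6 reads after cocaine and 5.31, 2.74 and 2.18 after saline, and rose by 1.92 (SE 0.361). Phf21b, a PHD finger protein, rose by 1.85, the Sin3-associated Arid4b by 1.795, and Whsc1, the histone H3 lysine methyltransferase now named Nsd2, by 1.37. The zinc finger genes on a list, Zfp236, Zc3h7b and Zbtb40, rose by 1.92, 1.86 and 1.85. Gm13154, now named Zfp985, was not on that list, and its site fell by 1.23.

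The list of ADP-ribose, NAD and DNA repair genes held 2 sites that moved in opposite directions. Bard1 encodes the partner of BRCA1 in a ubiquitin ligase that acts in recombination. Its site (chr1:71098301-71099700) held 23.0 and 20.45 reads after cocaine and 3.19, 7.29 and 6.55 after saline, and rose by 1.83 (SE 0.365, limma adjusted p 0.0064). Rbbp8, whose product binds BRCA1, is the lower site described above. Atad5, which unloads the replication clamp PCNA, was outside the list and rose by 2.13 (SE 0.301), from 4.25, 3.65 and 2.18 to 17.3 and 18.2.

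The ubiquitin system gave 14 sites in 13 genes, all of which rose. They included the deubiquitinases Usp12 and Usp40, which rose by 1.55 and, at the better ranked of its 2 sites, 1.47, and the ligase Rnf141, which rose by 1.98. Usp12 was among the better covered, with 19.7 and 23.9 reads after cocaine and 4.25, 8.21 and 8.73 after saline. The RNA-binding gene Fxr2 rose by 1.54.

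Metabolic enzymes gave 15 sites in 14 genes, which all rose, with a median change of 1.71, the same as over all higher low-count sites. Pla2g4e, a phospholipase and acyltransferase, had sites at 32.0 and 76.0 kb and rose by 1.71 at both. Hsd11b1, which regenerates active glucocorticoid, rose by 1.85, and the liver lipase gene Lipc by 1.78. Por, the reductase that feeds electrons to cytochromes P450, was outside the list; its site held 18.1 and 18.2 reads after cocaine and 4.25, 5.47 and 2.18 after saline, and rose by 2.01 (SE 0.359, limma adjusted p 0.00537).

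Lists for cell types of the region held few of these sites. The medium spiny neuron list held Rgs9 and the oligodendrocyte list Bcas1, a gene of cells starting to myelinate, which rose by 1.92 with values of 13.1 and 18.2 against 1.06, 6.38 and 4.37. The lists for astrocytes and for microglia and endothelium held 0 of these sites, and only 1 and 0 of all 1727, so their absence says nothing about distal sites. The immune genes C8a and Tnfrsf11a rose by 1.64 and 1.70. In all, 124 of the 228 genes were on a list and 104 on none.

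Cytoskeletal, motor and centrosome genes gave 21 sites in 7 genes, of which 6 rose and the 15 in Sfi1 were not called. The 6 included Ank2, a membrane adaptor, Dync1h1, the heavy chain of cytoplasmic dynein, and the centriole gene Cep152, which rose by 1.74, 1.84 and 1.64. Dnajc7, a co-chaperone of Hsp70 and Hsp90 outside the lists, rose by 2.14 (SE 0.272), from 3.19, 1.82 and 2.18 reads to 14.0 and 13.6. Bfsp2, a beaded filament protein of the lens, had values of 24.6 and 34.1 against 6.37, 6.38 and 12.01 and rose by 1.75 (SE 0.358). Ldb3 and Lypd6 rose by 2.40 (SE 0.854) and 2.17 (SE 0.832), each with a saline replicate at 0.

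Sfi1, which encodes a centrosomal protein, held the only distal sites with a mean of 100 reads or more. Its 15 sites covered chr11:3031301-3076100 and lay 17.9 to 60.7 kb from the start of a gene of 61.6 kb. Group means ran from 190 to 877 normalized reads after cocaine and from 174 to 778 after saline. The highest site, 33.2 kb from the start, held 893 and 861 reads after cocaine and 775, 809 and 750 after saline. The cocaine values exceeded all saline values at 14 of the 15 sites, by ratios of group means of 1.05 to 1.33 with a median of 1.16.

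The exception lay 22.2 kb from the start, where cocaine replicate 2 held 390.9 and saline replicate 3 held 391.9 reads. limma's adjusted p ran from 0.127 to 0.758, 0 of the 15 sites had an unadjusted limma p under 0.05, and the exact binomial test on reads gave an adjusted p under 0.05 at 11. The authors' negative binomial test gave both small and large adjusted p-values among the 15. It gave 2.7e-07 at the site starting at 3054601 and 0.326 at the site starting at 3046101. limma draws each site's spread toward that of the low-count majority, so its p does not measure the spread at these sites alone. The exact test ignores variation between replicates altogether. The 15 sites together held 66.1 and 67.1% of the reads over all 256 sites in the cocaine replicates and 83.9 to 85.1% in the saline replicates. Sums over the distal sites therefore mostly measure Sfi1. The gene has further listed sites nearer its start, 4 in the gene body and 1 in the promoter. Whether the authors' counting could place reads from near-identical copies here is not stated.

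**Figure D3:**
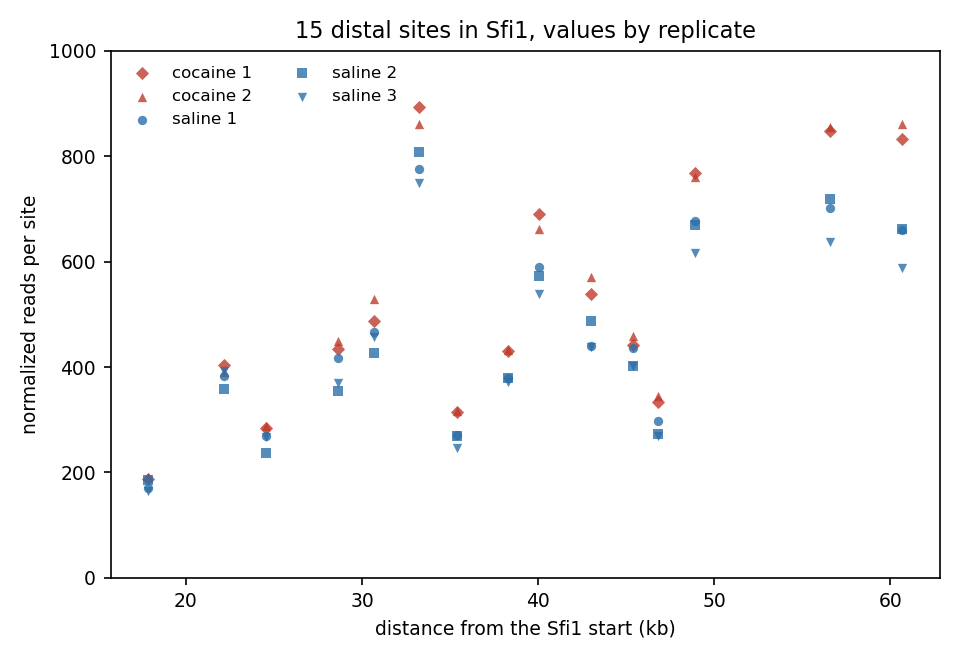
Normalized reads per site (y axis, linear from 0) in the 2 cocaine replicates (red) and 3 saline replicates (blue) at the 15 distal Sfi1 sites, by distance from the gene start in kb (x axis). The level varies from 165 to 893 reads along the gene, while cocaine and saline values at a site stay within 1.33 times of each other as group means.

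Apart from Sfi1, 4 sites had means well above the rest. 2610005L07Rik held 67.4 and 89.8 reads after cocaine and 44.6, 45.6 and 39.3 after saline and rose by 0.84 (SE 0.255, limma adjusted p 0.0201). C130026I21Rik held 55.9 and 60.2 against 27.6, 36.5 and 22.9 and rose by 1.0. Pisd, a mitochondrial phospholipid enzyme, held 45.2 and 37.5 against 22.3, 16.4 and 24.0 and rose by 0.96. These changes were below the median of 1.71 over the higher low-count sites. The fourth was the lower site in Gm13154. They were named for their values after these had been seen. The 1 low-count site not called was in Ccdc83, where saline values of 9.56, 6.38 and 1.09 spread widely below cocaine values of 15.6 and 17.0 (change 1.66, SE 0.695, limma adjusted p 0.0574).

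Most genes held 1 distal site, 12 held 2, Snx30 held 3 and Sfi1 15. The genes with 2 were Evc2, Foxo3, Pla2g4e, Ptpn14, Rgs3, Scpep1, Smoc2, Spata13, Tle3, Tmco3, Tmco4 and Usp40, and all of their sites rose. Gaps between the paired sites ranged from 0.4 kb in Tle3, a Groucho corepressor, to 68.1 kb in the phosphatase gene Ptpn14. The Tle3 sites rose by 1.69 and 1.67. In Ptpn14 the nearer site held 13.1 and 13.6 reads after cocaine and 1.06, 2.74 and 6.55 after saline, and the farther 15.6 and 17.0 against 5.31, 8.21 and 2.18. These rose by 1.89 (SE 0.550) and 1.60 (SE 0.473). Sites of 1 gene share that gene and these libraries and are not replicates of each other.

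Enrichment over background, as given in the authors' deposited table, was 2.70 in the median after cocaine and 0.81 after saline at the 237 higher low-count sites. After saline 154 of them (65.0%) lay below background, and 107 went from below background in saline to 2 times background or more after cocaine. Over all higher listed sites under 100 reads the medians were 2.64 and 0.78. The share below background after saline was 58.1% within 15 kb of a start and 72.1% in long genes. It was 68.6% in intergenic sites outside gene deserts and 81.7% in gene deserts. The sites were listed by this contrast, so the shift only describes them. At 28 of the 237 distal sites (11.8%) the cocaine enrichment was 5 or more. The highest were Zc3h7b at 32.7, Tle3 at 17.8, Wwc1, a scaffold of the Hippo pathway, at 15.2, Rgs3 at 14.8, and Grk4 and Plxna1 at 13.1 each, and the same sites had the highest values after saline, at 8.10, 5.26, 3.70, 4.55, 3.55 and 3.53.

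Their reads after cocaine were ordinary, with a median of 15.5 at the 28 sites against 15.8 at the other 209. What differed was the background. Dividing the cocaine mean by the cocaine enrichment gave backgrounds that were whole multiples of 0.512 (within 0.1 of a step) at 98.3% of the low-count sites. Zc3h7b had 1 such step and the next 5 sites 2 each. The 28 sites had 1 to 7 steps with a median of 4, and the other 209 had 6 to 87 with a median of 12. Enrichment is the mean divided by this background. The cocaine means of the higher low-count sites had quartiles of 14.5 and 17.3, while their backgrounds ran from 1 to 87 steps. Whether the listing kept the means in this range was not tested. By this division, the order of sites by enrichment followed the background count more than the PARP-1 count. Which library gave the background is not given in the sources used here.

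**Figure D4:**
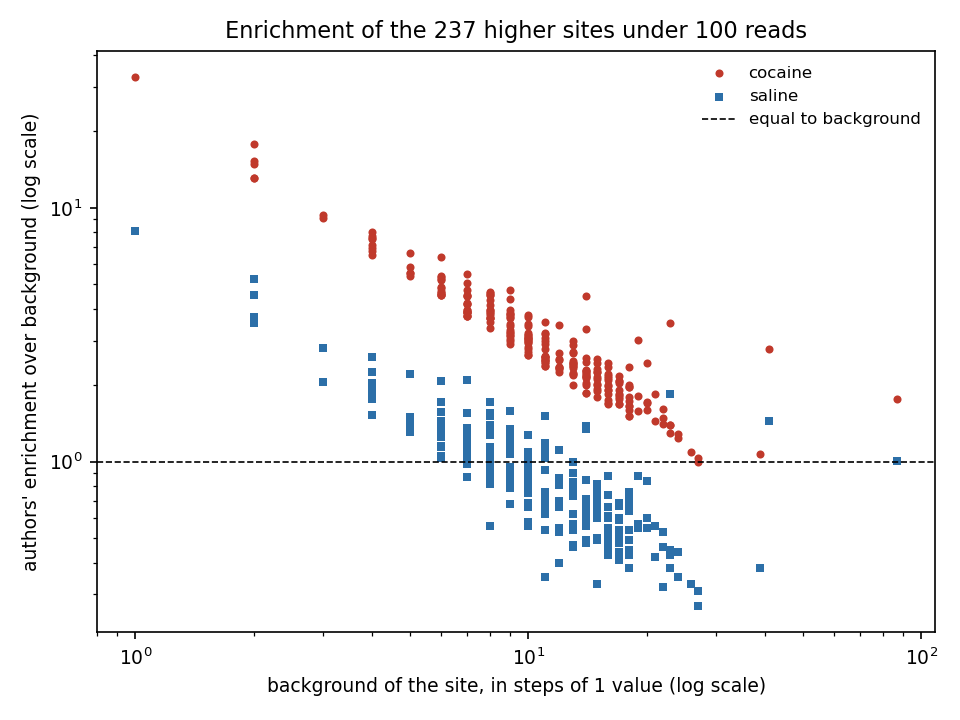
The authors' enrichment over background (y axis, log scale) after cocaine (red circles) and saline (blue squares) at the 237 higher low-count sites, against the site's background in steps of 0.512 normalized reads (x axis, log scale); the dashed line marks a value equal to background. Enrichment falls steadily as the background grows from 1 to 27 steps, from 32.7 at Zc3h7b to 1.0 after cocaine, with a few better covered sites above that trend.

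The sites were 15.1 to 135 kb from the start of their gene, with a median of 38.3 kb, and the genes were 17.0 to 148 kb long. Along the gene, 14 sites lay in the first 25% of its length, 55 between 25 and 50%, 88 between 50 and 75% and 91 in the rest, and 8 had a midpoint beyond the annotated end. The rule keeps the first 15 kb empty, so the early stretches can hold fewer. Counted from 15 kb to the gene's end only, the 4 equal stretches held 48, 67, 72 and 61 sites. Both sets of counts include the 15 Sfi1 sites, which share a gene. The 8 sites past the end, in Nfs1, Slc16a4, Tmco3, Agpat6, Fxr2, Heatr6, Arsk and Bai1, all rose and lay at most 818.5 bp beyond it. The farthest from a start was in Slc24a4, a sodium, calcium and potassium exchanger, at 135 kb, which held 14.0 and 13.6 reads against 1.06, 5.47 and 3.28 and rose by 1.94.

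The size of the difference is given by distance and gene length below, although the sites were listed by the same contrast, which selects on that size. The authors' deposited log2 fold change had a median of 1.89 at higher low-count sites 15 to 30 kb from the start, 1.84 at 30 to 60 kb and 1.86 beyond 60 kb. By gene length it was 1.88 under 50 kb, 1.86 at 50 to 100 kb and 1.81 at 100 to 150 kb. The sites lay on 19 chromosomes, with 34 on chromosome 11, of which Sfi1 gave 15. Exon, intron or UTR position was not determined, because no mm9 annotation was used here.

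**Figure D5:**
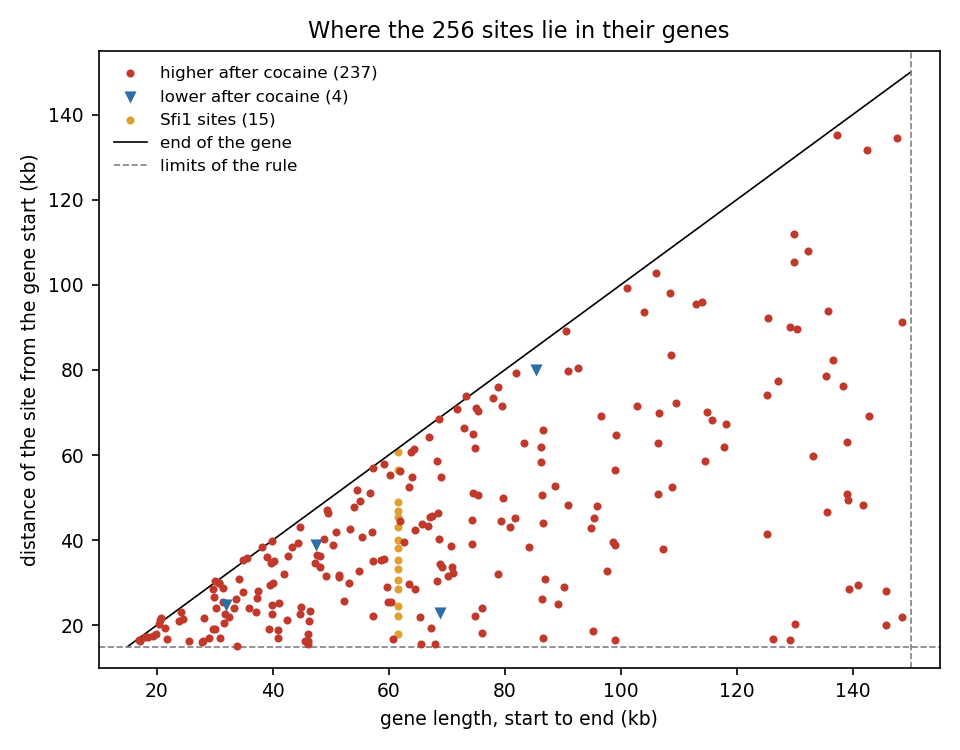
Distance of each of the 256 sites from its gene's start (y axis, kb) against the gene's length (x axis, kb), with higher sites in red, lower sites as blue triangles and the Sfi1 sites in yellow. The solid line is the gene's end and the dashed lines are the limits of 15 and 150 kb; sites fill the area between them up to the gene end, and the 4 lower sites lie 22.8 to 80.0 kb from the start in genes of 31.9 to 85.4 kb.

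Sites on either side of the limits had these values. Just beyond 15 kb lay 2010015L04Rik at 15.1 kb, with means of 17.6 ± 0.728 after cocaine and 4.86 ± 1.89 after saline (SD, n = 2 and n = 3), and Por. Just within 15 kb lay Wdfy1 at 14.99 kb, with 17.0 ± 1.53 and 5.52 ± 1.62, and Nuak1 at 14.9 kb, with 23.3 ± 3.95 and 5.62 ± 2.51. The longest genes included were Ptpn14 and Map4k3, at 148.4 and 147.6 kb. The shortest left out were Nav1, with means of 17.2 and 5.44, and Sphkap, whose site was lower with means of 4.49 and 15.95.

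Under the authors' scaling the share of lower sites was 1.56% here, which is 4 sites. It was 2.39% of 251 sites (6 sites) within 15 kb of a start, 4.56% of 263 distal sites in genes of 150 kb or more, 5.92% of 710 intergenic sites outside gene deserts and 17.0% of 212 gene desert sites. Differences between these classes were not tested, since sites are not replicates. At higher low-count sites the median limma change was 1.71 here and 1.75, 1.68, 1.69 and 1.66 in the other classes in that order. A cocaine enrichment of 5 or more occurred at 11.8% here, 22.5% within 15 kb of a start, 11.2% in long genes, 11.9% in intergenic sites and 4.0% in gene deserts. The median background of these sites was 5.63 normalized reads here and 5.62, 6.15, 6.14 and 8.20 in the others; its part in the enrichment shares was not tested.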

How the data were processed

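PARP-1 ChIP-seq reads were processed by the authors. The submitters' processing notes name the mm9 build and CASAVA 1.8.2, and the list's name gives diffReps with a negative binomial test. The aligner, duplicate handling and listing threshold are not given in the sources used here. Per the file headers, each replicate has a normalized read count in the deposited list, and other columns hold the group mean (a signal, the authors' mean normalized coverage of the site), a ratio of enrichment over background, the authors' log2 fold change and the authors' p-value and adjusted p-value.

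Values were whole multiples of 1 value per library (100% within 0.1 read), from which whole reads follow. That value was 0.822 and 1.14 for cocaine and 1.06, 0.912 and 1.09 for saline libraries. By these factors the shallowest library had 72.3% of the deepest one's depth. Over the 256 sites the libraries held 14307, 10620, 7675, 8825 and 7104 reads. The labels name no molecular identifiers and PCR copies may count as reads, so intervals cover counting error only.

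limma 3.58.1 (R 4.3.3) was fitted to log2(value + 1) over all 1727 sites with Benjamini-Hochberg adjustment and a threshold of 0.05, and was tested on simulated data. Fold changes on this scale understate changes at low counts. An exact two-sided binomial test set each site's cocaine share of reads against the cocaine share of depth, 41.5%, which follows the authors' scaling. Reads were summed within each group, so variation between replicates does not enter it. This test was chosen after seeing the data. Saline was taken as the control because the series design calls it so. Genes named were, per direction, the 8 largest changes and the 8 smallest authors' adjusted p-values, all genes with several sites, up to 4 genes per list by adjusted p, and sites next to the limits. A few others are named as examples of a count or value and were chosen after their values were seen. The sites, 25 gene lists and this rule were chosen with earlier results of these data known, and 5 gene and list pairs matched by name only were set aside after the list was read. Current names came from RefSeq (GRCm38.p6), matched by transcript for 224 of 228 genes. Gene length is that of the transcript assigned by the authors. Site sequences were not used here.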

Additional observations from a re-analysis of the deposited data

How the results depend on the processing

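The share of higher sites stayed between 98.0 and 98.7% with distance limits of 10 and 20 kb, gene length limits of 100 and 200 kb, and an authors' adjusted p under 0.01. Those limits, other pseudocounts, a trended limma fit and the exact test (the last chosen after seeing the data) kept the counts of calls within 1.5 times of 236 higher and 4 lower. The changed limits gave, in the order named, sets of 304, 222, 205, 302 and 249 sites. Their calls came from the same fit, so their counts mostly follow the set size. With only sites of a mean of 10 or more in the fit, which left 75 of the 256, limma called 58 higher and 3 lower. Over all listed sites in that fit it called 443 higher and 73 lower. With median-of-ratios factors it called 0 higher and 19 lower, and 0 and 159 over all listed sites. Leaving out 1 replicate gave 0 to 236 higher and 0 to 4 lower calls. The median change of the higher sites was 1.69, and 1.65 to 1.75 with 1 replicate left out, 1.81 and 1.52 with pseudocounts of 0.5 and 2, 1.85 as a log2 ratio of means without a pseudocount and 0.13 with median-of-ratios factors. Those factors centre the list by construction, so sites below its median turn negative, as 71 of 252 higher sites did. Among the named genes these were Cdh26 (-0.070), Fxr2 (-0.059), Kcnj16 (-0.12), Lama1 (-0.24), Rin3 (-0.013), Skint4 (-0.18), Usp12 (-0.078), Usp40 (-0.16) and Whsc1 (-0.23), with Sfi1 at a median of -1.54. Of 83 named genes, taken at 1 site each, 4 lost their call with a pseudocount of 0.5, 34 without cocaine replicate 1, all 83 without cocaine replicate 2 (smallest adjusted p over all sites 0.0561), 1 and 5 without saline replicates 1 and 2, and 70 with median-of-ratios factors, besides the 9 that changed sign. The other causes were not tested. The edgeR fit planned on recovered reads was not run. No paired analysis was possible because the values carry no replicate numbers from the labels. A saline replicate held a median of 4 or 5 reads at the higher low-count sites, which limits the precision of each change.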
